A study of Arabidopsis thaliana with 6 samples.

Results

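The ferric reductase oxidase (FRO) family of Arabidopsis thaliana was followed through 6 RNA libraries from whole anthers of wild-type Col-0 plants. Its 8 genes were taken by locus number: FRO1 (AT1G01590), FRO2 (AT1G01580), FRO3 (AT1G23020), FRO4 (AT5G23980), FRO5 (AT5G23990), FRO6 (AT5G49730), FRO7 (AT5G49740) and FRO8 (AT5G50160). They are 8 of the 33027 loci and 9 of the 41086 transcripts that were quantified. The Fe-deficient group (3 libraries) came from plants moved for 18 days to medium to which no NaFe-EDTA was added, and the control group (3 libraries) from plants kept for those 18 days with NaFe-EDTA, which the labels give as 50 mM. The unit of that concentration could not be checked. All plants had grown for 28 days with iron beforehand, 10 on plates and 18 in hydroponics. Whether libraries within a group stem from different plants is not in the labels, so p-values reflect library-to-library spread that could be technical. Values of the libraries of a group stand in the order of the labels' numbers, 1, 2 and 3. The labels do not say whether a number stands for anything that the groups share.

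FRO proteins are membrane enzymes that carry electrons from NADPH through bound FAD and heme to ferric iron or cupric copper on the other side of a membrane, releasing the reduced metal for a transporter. FRO2 works at the root surface, where the importer IRT1 takes up the ferrous iron it makes. FRO3 and FRO8 are assigned to mitochondria, FRO7 to chloroplasts and FRO6 to the plasma membrane of green tissue, while FRO4 and FRO5 act in copper uptake by roots. The RefSeq note for FRO1 describes it as very weakly expressed in iron-starved seedlings.

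The genes stand in 3 tandem pairs and 2 single loci on TAIR10.1. FRO2 (chr1:208995-213082) and FRO1 (chr1:214150-217734) lie 1067 bases apart on the plus strand, each with 8 exons. FRO3 (chr1:8149868-8153796) is on the minus strand and is represented by 2 transcripts, with 10 and 9 exons. FRO4 (chr5:8097978-8101330) and FRO5 (chr5:8105461-8108642) lie 4130 bases apart, and FRO6 (chr5:20201037-20204595) and FRO7 (chr5:20205302-20208777) 706 bases apart, all on the minus strand. FRO8 (chr5:20415764-20418847) is on the plus strand with 8 exons. The coding sequences of FRO6 and FRO7 were identical at 93.9% of 2214 aligned bases and those of FRO4 and FRO5 at 92.8% of 1974. FRO1 was nearer to FRO3 (85.6%) than to its neighbour FRO2 (73.9%). All pairs outside FRO1 to FRO3, FRO4 with FRO5 and FRO6 with FRO7 were between 58.0% and 65.4%.

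A stretch of FRO6 and FRO7 is shown because they share so much sequence that some reads cannot be told apart, which bears on their separate values. The stretch covers coding bases 1753 to 1872 of FRO6 (chr5:20201902-20202021) and 1780 to 1899 of FRO7 (chr5:20206096-20206215), both in the eighth coding exon and written in the direction of transcription. Capitals mark the 8 bases that differ. After the last of them the genes are identical for 375 coding bases, to the stop codon.
FRO6: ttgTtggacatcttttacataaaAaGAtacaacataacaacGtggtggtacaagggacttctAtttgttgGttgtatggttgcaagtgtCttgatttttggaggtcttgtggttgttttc
FRO7: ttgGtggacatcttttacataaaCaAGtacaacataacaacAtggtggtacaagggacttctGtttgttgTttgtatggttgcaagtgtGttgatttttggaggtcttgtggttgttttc
Of the windows of 150 bases (the read length in the labels) in the coding sequence of FRO6, 10.9% occur unchanged in FRO7. The estimated counts of both genes were fractional in each of the 6 libraries while their sum was whole to within 0.0015 in each, so reads had been divided between these 2 genes. FRO1, FRO2, FRO4, FRO5 and FRO8 had whole counts in each library. The 2 FRO3 transcripts had fractional counts with a whole sum.

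The starts of FRO3, FRO6, FRO7 and FRO8 are shown because these genes carry the patterns described further on. Each window runs from 250 bases before to 50 bases after the outermost annotated start, read 5′ to 3′ on the gene's strand from TAIR10.1 with RefSeq gene models. Capitals mark the E-box CANNTG, which bHLH factors bind. CACGTG, the G-box, is one form of it. Capitals also mark the I-box GATAAG on either strand, known from light-regulated genes. The windows are chr1:8153747-8154046, chr5:20204546-20204845, chr5:20208728-20209027 and chr5:20415514-20415813.
FRO3: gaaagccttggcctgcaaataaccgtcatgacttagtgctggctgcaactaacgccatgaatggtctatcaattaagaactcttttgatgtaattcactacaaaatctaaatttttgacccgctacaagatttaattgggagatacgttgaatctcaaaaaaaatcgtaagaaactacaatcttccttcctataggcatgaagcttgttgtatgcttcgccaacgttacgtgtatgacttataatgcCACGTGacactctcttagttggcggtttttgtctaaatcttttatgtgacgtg
FRO6: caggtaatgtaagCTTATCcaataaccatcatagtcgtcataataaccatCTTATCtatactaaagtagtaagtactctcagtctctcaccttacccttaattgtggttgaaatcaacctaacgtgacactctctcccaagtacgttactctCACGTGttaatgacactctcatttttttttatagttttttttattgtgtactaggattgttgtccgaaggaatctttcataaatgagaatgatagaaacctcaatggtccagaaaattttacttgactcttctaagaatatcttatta
FRO7: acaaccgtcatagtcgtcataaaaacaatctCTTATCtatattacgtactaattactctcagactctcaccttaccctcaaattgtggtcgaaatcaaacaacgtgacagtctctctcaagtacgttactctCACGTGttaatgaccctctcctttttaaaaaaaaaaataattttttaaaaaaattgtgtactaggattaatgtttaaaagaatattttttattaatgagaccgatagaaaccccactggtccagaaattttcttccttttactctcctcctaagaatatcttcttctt
FRO8: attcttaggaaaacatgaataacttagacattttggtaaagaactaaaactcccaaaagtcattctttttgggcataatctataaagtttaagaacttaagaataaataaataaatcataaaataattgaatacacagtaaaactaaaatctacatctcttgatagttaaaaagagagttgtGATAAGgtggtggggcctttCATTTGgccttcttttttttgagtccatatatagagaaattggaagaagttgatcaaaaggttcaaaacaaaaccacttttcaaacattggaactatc
CACGTG began 3 bases before the annotated start of FRO3 and so ran across it. It began 98 bases before the start of FRO6 and 118 before that of FRO7, and was in none of the other 5 FRO windows. It occurs in 7.68% of 27443 such windows of protein-coding genes, CANNTG (both strands read alike) in 61.7% and GATAAG on either strand in 14.6%. GATAAG was found in the windows of FRO6, FRO7 and FRO8. The core GTAC, bound by the copper regulator SPL7, occurs in 39.0% of windows and was found in those of FRO2, FRO6 and FRO7. The windows of FRO6 and FRO7 were identical at 84.8% of 277 aligned bases. These matches describe letters only, and a missing match says nothing of a factor.

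The libraries differed within the groups as well as between them, and Fe-deficient 3 and control 3 stand out in this family's values. Depth was 16818176 to 22710901 estimated counts per library. Fe-deficient 3 was the library with very high iron-deficiency transcripts such as BTS, at 860 CPM (counts relative to TMM-scaled library size) against at most 101 CPM in any other. Fe-deficient 3 and control 3 also shared high APETALA1 (AP1), a regulator of sepal and petal identity. AP1 had 14.3, 15.2 and 98.8 CPM in the 3 Fe-deficient libraries, against 11.0, 18.8 and 84.8 CPM in the 3 controls. The stamen identity genes AP3, PI and AG were high in every library, with summed levels of 791 to 1098 CPM in Fe-deficient and 749 to 946 CPM in control anthers. Tapetum markers (8 genes) summed to 475 to 966 CPM in Fe-deficient and 1188 to 2308 CPM in control anthers, late pollen markers (8 genes) to 4025 to 11944 and 917 to 4250 CPM, and meiocyte markers (5 genes) to 17.5 to 19.5 and 26.0 to 46.3 CPM. Their part in the FRO values was not tested. In such bulk samples, fewer cells of a type and less RNA per cell cannot be told apart.

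Across the family, TPM, a relative level that corrects for transcript length, put FRO1, FRO3, FRO6 and FRO7 at intermediate levels, FRO8 below them and FRO2, FRO4 and FRO5 at the bottom. In Fe-deficient anthers the means were 62.1 ± 81.5 TPM for FRO3, 24.2 ± 31.3 for FRO6, 15.6 ± 10.6 for FRO7, 14.1 ± 2.98 for FRO1, 4.33 ± 4.84 for FRO8, 2.63 ± 2.79 for FRO2 and 0.152 ± 0.149 for FRO4 (SD, n = 3). In controls they were 14.2 ± 13.9 TPM for FRO6, 14.2 ± 2.79 for FRO3, 11.4 ± 6.58 for FRO7, 10.8 ± 1.71 for FRO1, 4.35 ± 4.15 for FRO8, 0.572 ± 0.773 for FRO2 and 0.0355 ± 0.0615 for FRO4 (SD, n = 3). In both orders each of FRO3, FRO6, FRO7 and FRO1 differed from its neighbour by less than the larger SD of that pair. FRO3 had 0.845, 1.37 and 11.4 times the TPM of FRO1 in the 3 Fe-deficient libraries, against 1.21, 1.35 and 1.38 times in the 3 controls. FRO8 was below FRO7 in all 6 libraries. FRO2 was below FRO8 in 5 of them and above it in Fe-deficient 1.

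The summed TPM of the 8 genes was 56.2, 43.3 and 270 in the 3 Fe-deficient libraries, against 38.7, 37.7 and 89.9 in the 3 controls. The high sums were thus those of Fe-deficient 3 and control 3, but different genes made them up. FRO3 held 57.9% of the family's TPM in Fe-deficient 3 and 19.3% in control 3, where FRO6 was the largest member with 33.6%. In Fe-deficient 1, FRO1 was the largest with 30.7%, and FRO2 held 10.3%, more than in any other library (at most 1.63%).

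**Figure D1:**
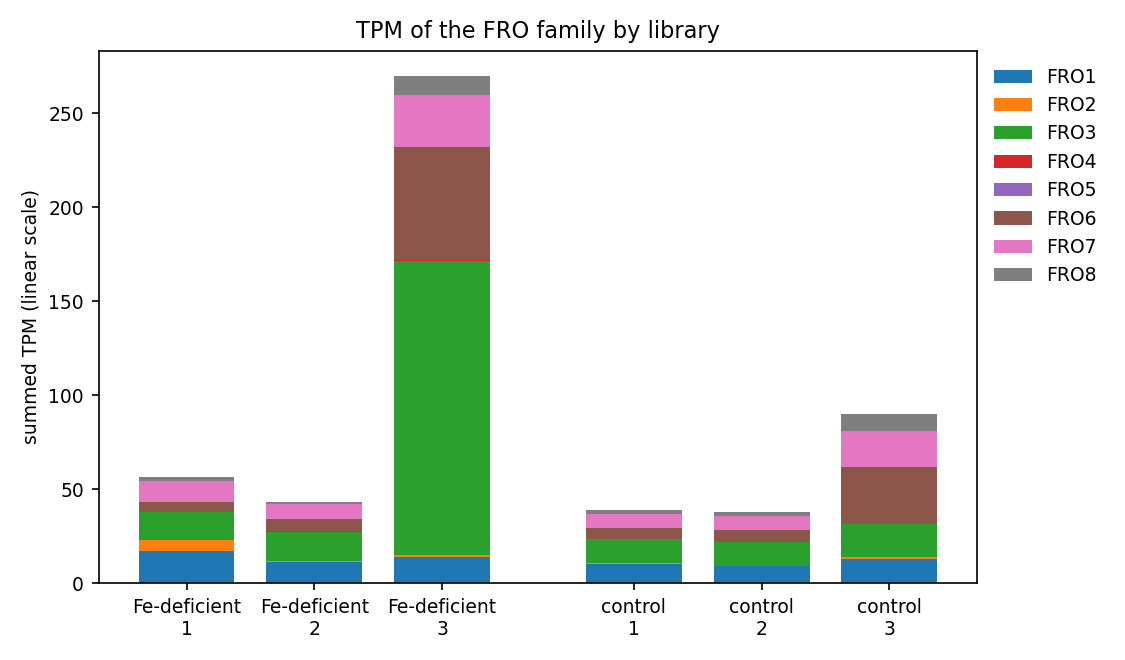
Stacked bars give the TPM of each FRO gene in the 3 Fe-deficient and 3 control libraries on a linear axis, and the height is the family's sum. The bar of Fe-deficient 3 reaches 270 TPM, mostly FRO3, and that of control 3 reaches 89.9 TPM, with FRO6 as its largest part.

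The test of Fe-deficient against control anthers called none of the FRO genes. Of the 8 genes 6 were tested, and FRO4 and FRO5 were left out for low counts. FRO2 entered with at least 10 counts in all 3 Fe-deficient libraries but in only 1 control. At a Benjamini-Hochberg adjusted p under 0.05 over 21267 loci, edgeR's quasi-likelihood test called 0 of the 6, where it called 0.0% of all loci. At an unadjusted p under 0.05 it counted FRO1 and FRO3, both higher, where 7.34% of all loci were so counted as higher. In CPM, FRO1 and FRO3 were also the 2 of 6 with every Fe-deficient library above every control, as were 10.0% of all loci. In TPM the groups overlapped for both genes. All 6 log2 fold changes were positive with TMM scaling, with a median of 0.75 against 0.00 over all tested loci, and that of FRO8 turned negative on the TPM scale. limma-voom called 0 of the 6 as well. DESeq2 called 0 of the 4 FRO genes for which it gave a p (not FRO3 and FRO6), where it called 2.1% of all loci higher and 1.41% lower.

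**Figure D2:**
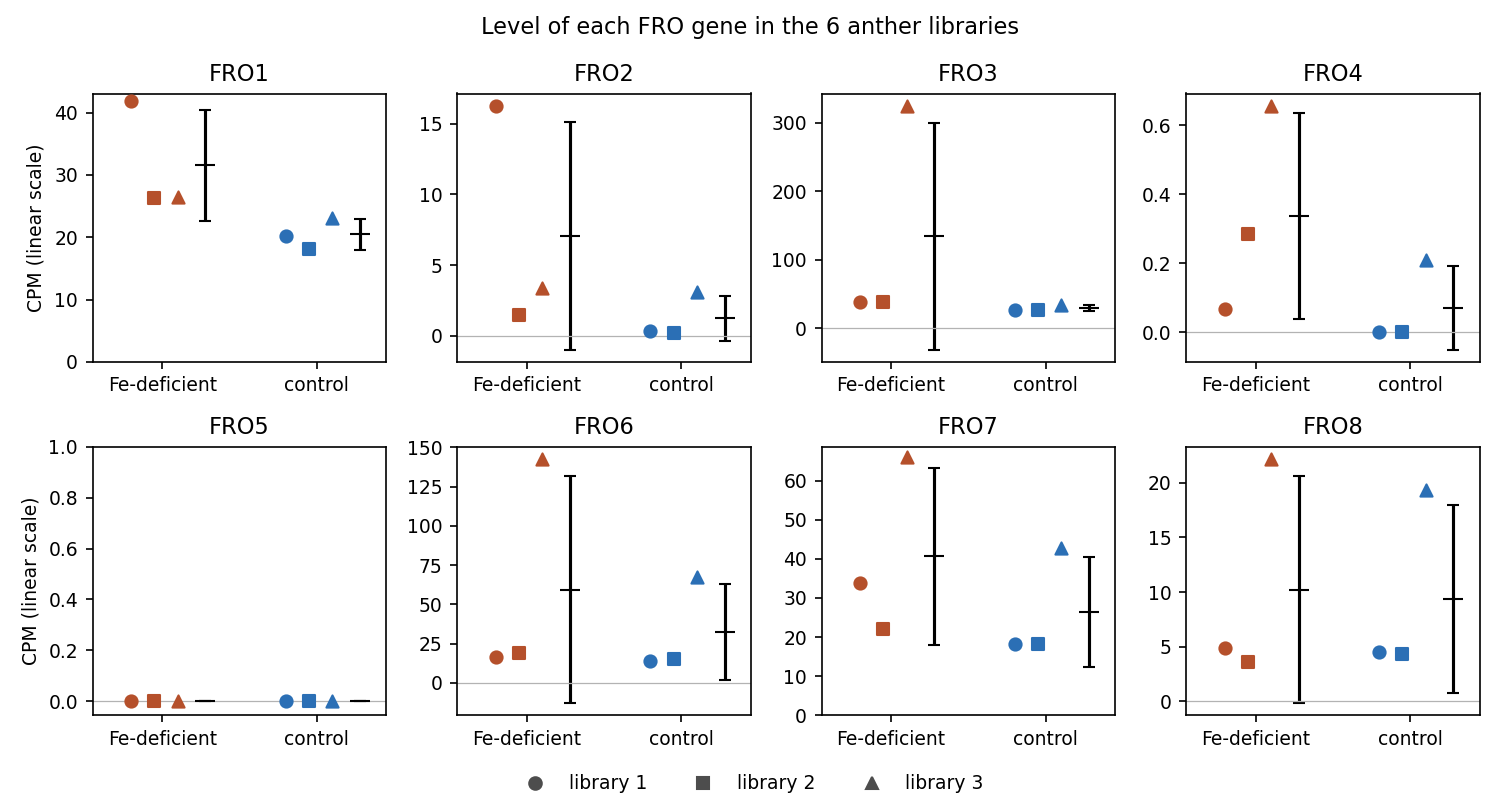
Each panel plots 1 FRO gene in CPM on its own linear axis, with a symbol per library, and the bar beside each group is the mean ± SD (n = 3). FRO3 stands out in Fe-deficient 3 alone, FRO6, FRO7 and FRO8 are high in Fe-deficient 3 and control 3, FRO2 is highest in Fe-deficient 1, and FRO5 is at 0 throughout.

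FRO3, one of the mitochondrial reductases, stood far higher in Fe-deficient 3 than in the other 5 libraries. It had 38.1, 38.6 and 325 CPM in the 3 Fe-deficient libraries, against 26.3, 26.3 and 34.1 CPM in the 3 controls. In CPM the groups did not overlap, but Fe-deficient 1 and 2 were only slightly above the highest control while Fe-deficient 3 was 9.52-fold above it. In TPM they did overlap, with 14.6 and 15.5 in Fe-deficient 1 and 2 and 17.4 in control 3. Of all tested loci, 0.498% were at least 4-fold higher in Fe-deficient 3 than in every other library, and FRO3 was the only FRO gene among them. By TPM, FRO3 stood above 96.0% of detected loci in Fe-deficient 3, against 60.7% and 61.0% in Fe-deficient 1 and 2 and 52.5% to 59.3% in the 3 controls.

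The edgeR log2 fold change of FRO3 was 2.21 (SE 0.89, adjusted p = 0.371). Without Fe-deficient 3 it was 0.41 (SE 0.15, edgeR adjusted p = 0.145), and without any other single library it was between 2.14 and 2.65. The spread of FRO3 was large among Fe-deficient libraries, with an SD of 1.78 on the log2 CPM scale (98.0% of tested loci had a smaller one), and near the middle of all loci among controls, at 0.22 (51.1% had a smaller one).

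Both FRO3 transcripts were high in Fe-deficient 3. The first had 9.73, 12.9 and 125 TPM in the 3 Fe-deficient libraries, against 9.63, 8.26 and 15.9 TPM in the 3 controls. The second had 4.86, 2.63 and 31.1 TPM, against 3.01, 4.23 and 1.46 TPM. In RefSeq, their coding sequences (2151 and 2154 bases) share 8 of 9 coding blocks, so reads from these blocks fit both and their division rests on Salmon's estimate. The second transcript took 33.5%, 17.1% and 20.1% of the FRO3 counts in the 3 Fe-deficient libraries, against 24.0%, 34.1% and 8.46% in the 3 controls, and these ranges overlapped. In a fit over 25798 transcripts, edgeR's log2 fold changes were 2.21 (SE 0.95) and 2.22 (SE 0.92), with adjusted p-values of 0.454 and 0.453. It called 0 of the 7 FRO transcripts tested and 0.0% of all.

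Among 19089 loci, the profiles nearest to that of FRO3 over the 6 libraries were those of BTS, a ubiquitin ligase acting against iron-deficiency regulators, SOT12, a sulfotransferase, and ORG1. The root mean square differences from FRO3 in centred log2 CPM were 0.15, 0.19 and 0.23. BTS had 101, 79.6 and 860 CPM in the 3 Fe-deficient libraries, against 74.0, 72.0 and 80.3 CPM in the 3 controls. PYE, a bHLH repressor in iron homeostasis, had 15.1, 14.5 and 46.1 CPM, against 11.4, 10.0 and 9.31 CPM, and so was highest in the same library by a smaller factor. The nearest loci were picked for likeness, so their values are a description.

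FRO6 and FRO7, the tandem pair of leaf plasma membrane and chloroplast, followed another pattern. FRO6 had 16.4, 19.1 and 143 CPM in the 3 Fe-deficient libraries, against 14.0, 15.3 and 67.4 CPM in the 3 controls. FRO7 had 33.8, 22.1 and 66.0 CPM, against 18.1, 18.2 and 42.7 CPM. Both were highest in Fe-deficient 3 and next highest in control 3, and the groups overlapped. Because reads were divided between the pair, their sum is the firmer value. It was 50.1, 41.2 and 209 CPM in the 3 Fe-deficient libraries, against 32.1, 33.6 and 110 CPM in the 3 controls, and it showed the same 2 high libraries.

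The balance of the pair also differed by library. FRO6 had 0.490, 0.874 and 2.18 times the TPM of FRO7 in the 3 Fe-deficient libraries, against 0.778, 0.850 and 1.60 times in the 3 controls. FRO6 thus exceeded FRO7 in Fe-deficient 3 and control 3 and in no other library. By edgeR, FRO6 and FRO7 had log2 fold changes of 0.88 (SE 1.03, adjusted p = 0.687) and 0.62 (SE 0.51, adjusted p = 0.569). Without Fe-deficient 3 that of FRO6 was -0.86 and that of FRO7 0.08, and without control 3 they were 2.02 and 1.16. With both libraries numbered 3 left out, chosen after seeing the data, they were 0.28 and 0.62.

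FRO8, the other mitochondrial member, shared this pattern at a lower level. It had 4.91, 3.57 and 22.2 CPM in the 3 Fe-deficient libraries, against 4.47, 4.35 and 19.3 CPM in the 3 controls. Fe-deficient 2 was the lowest library and Fe-deficient 3 was 1.15-fold above control 3. edgeR gave a log2 fold change of 0.13 with an SE of 0.89 (adjusted p = 0.954), and it lay between -1.15 without Fe-deficient 3 and 1.22 without control 3. The FRO3 and FRO8 profiles were unlike in control 3, which had 4.37-fold the mean of controls 1 and 2 for FRO8 and 1.29-fold for FRO3.

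All of FRO6, FRO7 and FRO8 were higher in Fe-deficient 3 and control 3 than in each of the other 4 libraries, as were 11.6% of tested loci. FRO6 and FRO8 were at least 2-fold higher in both Fe-deficient 3 and control 3 than in each of the other 4 libraries, a pattern that 0.799% of tested loci had. For FRO7, control 3 was 1.26-fold above the highest of the other 4. Within controls alone, the SD of log2 CPM was 1.27 for FRO6, 1.23 for FRO8 and 0.71 for FRO7, and 95.9%, 95.7% and 89.6% of tested loci had a smaller one. The loci nearest to FRO6 were CAULIFLOWER (CAL), a MADS-box gene close to AP1, EMB1290 and BGLU33, with root mean square differences of 0.25, 0.26 and 0.26. CAL had 0.942, 1.19 and 5.99 CPM in the 3 Fe-deficient libraries, against 0.553, 0.925 and 3.38 CPM in the 3 controls. The locus nearest to FRO8 was CSLE1, annotated as a cellulose synthase-like gene (difference 0.11), followed by AT3G55710 and AT4G10060.

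Of the markers of other floral and green tissue, AP1 and RBCS1A were higher in both Fe-deficient 3 and control 3 than in each of the other 4 libraries, as these 3 genes were, and the other 7 were not. The sepal and carpel list (AP1, CRC, SHP1, SHP2, STK) summed to 19.6, 18.4 and 108 CPM in the 3 Fe-deficient libraries, against 19.6, 35.7 and 92.7 CPM in the 3 controls. AP1 made up most of this in the libraries numbered 3, while the carpel genes SHP1, SHP2 and STK were at most 6.26 CPM anywhere, and no member was at 0 in all libraries. The 4 leaf mesophyll markers summed to 2303, 2307 and 3217 CPM, against 2917, 2970 and 3663 CPM, with the highest sum of each group in library 3. RBCS1A, a Rubisco small subunit gene, carried that, with 1083, 1031 and 2031 CPM in the 3 Fe-deficient libraries, against 1478, 1381 and 2210 CPM in the 3 controls. LHCB1.3, a light-harvesting gene, did not share this, with 938, 1129 and 930 CPM, against 1340, 1464 and 1329 CPM. Its library 3 was near library 1 in each group. LHCB2.1 had 174, 73.0 and 128 CPM, against 60.2, 60.3 and 58.9 CPM. LHCB1.2 had 108, 73.9 and 128 CPM, against 38.6, 64.0 and 65.1 CPM. The part of these markers in the levels of FRO6, FRO7 and FRO8 was not tested.

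FRO2, the root surface reductase, was scarce and uneven. It had 16.3, 1.48 and 3.41 CPM in the 3 Fe-deficient libraries, against 0.352, 0.218 and 3.09 CPM in the 3 controls. Fe-deficient 1 was 5.27-fold above the highest control, Fe-deficient 3 was 1.10-fold above it, and Fe-deficient 2 was within the control range. Controls 1 and 2 rested on 7 and 4 estimated counts. edgeR gave a log2 fold change of 2.50 with an SE of 1.26 (adjusted p = 0.406). It was 0.98 without Fe-deficient 1 and 4.59 without control 3, so single libraries set its size. At least 4-fold above every other library in Fe-deficient 1 were 0.174% of tested loci, FRO2 among them.

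The FRO2 profile was nearest to those of C/VIF1, a putative invertase inhibitor, SCPL7, a serine carboxypeptidase-like gene, and AT5G22860, at differences of 0.52, 0.59 and 0.61. These distances were wider than for FRO3 and FRO8. Of 5 root markers, EXPA7, EXPA18 and RHD6 had 0 counts in all 6 libraries, which allows up to 0.202 CPM in Fe-deficient 1 at a floor of 3 counts per library. COBL9 had 10.8 to 26.1 CPM in Fe-deficient and 23.9 to 43.4 CPM in control anthers, and PYK10 at most 3.06 and 6.96 CPM. Floors cover counting error only.

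FRO1, the tandem neighbour of FRO2, was the steadiest member and among the more abundant. It had 41.9, 26.3 and 26.4 CPM in the 3 Fe-deficient libraries, against 20.3, 18.1 and 23.0 CPM in the 3 controls. In CPM every Fe-deficient library was above every control, and the highest was Fe-deficient 1, as for FRO2. In TPM the groups overlapped, with 11.4 in Fe-deficient 2 and 12.6 in control 3. Its means were 31.5 ± 8.95 CPM in Fe-deficient and 20.5 ± 2.46 CPM in control anthers (SD, n = 3). edgeR gave a log2 fold change of 0.62 with an SE of 0.23 (adjusted p = 0.355), and it stayed between 0.37 and 0.74 with any 1 library left out. FRO1 had 10.8 ± 1.71 TPM in the 3 controls, against 0.572 ± 0.773 TPM for FRO2, and FRO1 was above FRO2 in all 6 libraries.

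FRO4 and FRO5, the copper-linked pair, were close to or at 0. FRO4 had 1, 5 and 15 estimated counts in the 3 Fe-deficient libraries, against 0, 0 and 5 in the 3 controls, which is at most 0.656 CPM. Its highest value was in Fe-deficient 3, and the groups overlapped at 5 counts. FRO5 had 0 counts in every library, which allows up to 0.202, 0.170 and 0.131 CPM in Fe-deficient 1, 2 and 3 and 0.151, 0.163 and 0.125 CPM in the 3 controls. No difference in FRO5 was detectable at this depth.

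**Figure D3:**
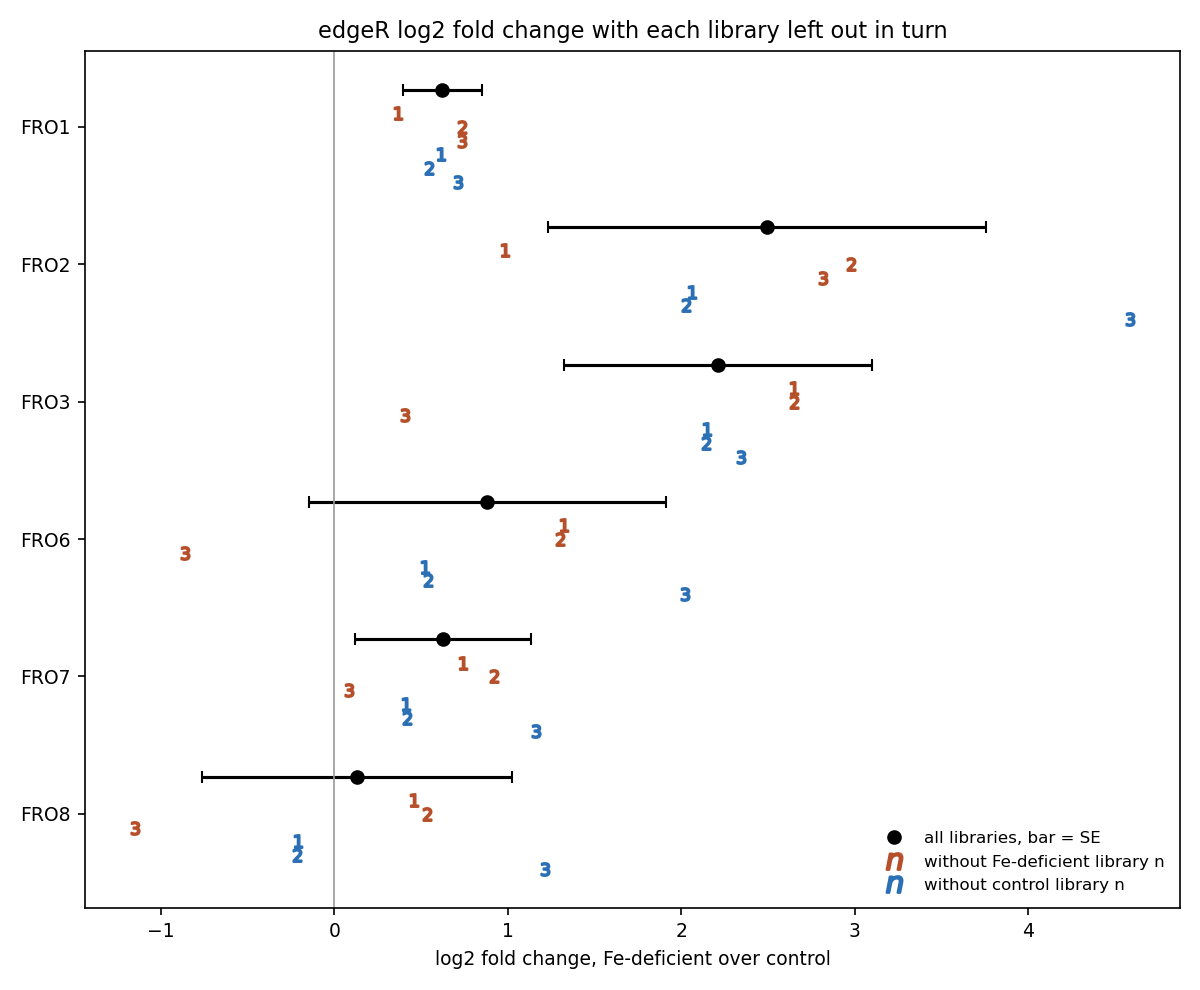
For each tested FRO gene, the black point and bar give the edgeR log2 fold change and its SE over all 6 libraries, and each digit the value with that library left out. FRO1 stays between 0.37 and 0.74, FRO3 drops to 0.41 without Fe-deficient 3, and FRO6 and FRO8 move to opposite sides of 0 without Fe-deficient 3 and without control 3.

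The genes that work beside FRO2 in root iron uptake gave no call either. Of 20 genes of uptake and its regulation 16 were tested, and edgeR called 0 higher and 0 lower. Left out for low counts were IRT2, bHLH38, bHLH39 and bHLH101. In Fe-deficient 3, bHLH38, bHLH39 and bHLH101 had 198, 92.8 and 83.6 CPM, and in every other library at most 0.337 CPM. The counts and the median given here thus do not cover them. At an unadjusted p under 0.05, 3 were higher (MYB72, PYE and bHLH100) and 0 lower, where 7.34% and 6.09% of all loci were. The median log2 fold change was 0.20. IRT1, the importer that takes up what FRO2 reduces, had 23.3, 14.3 and 12.9 CPM in the 3 Fe-deficient libraries, against 28.2, 23.1 and 22.4 CPM in the 3 controls. Its log2 fold change, at -0.55 (SE 0.26), had the opposite sign to that of FRO2 and no call (edgeR adjusted p = 0.388). AHA2, a proton pump that acidifies the root surface, had 167 ± 45.6 CPM in Fe-deficient and 116 ± 27.6 CPM in control anthers (SD, n = 3). FIT, the bHLH activator of FRO2 and IRT1 in roots, had 0.817 ± 0.247 and 0.733 ± 0.368 CPM (SD, n = 3). MYB72, a transcription factor of the root iron-deficiency response, was at 2.76, 0.851 and 2.62 CPM, against 0.151, 0.326 and 0.251 CPM, with no overlap. MYB72 and PYE were the 2 of 16 with every Fe-deficient library above every control, as were 10.0% of all loci. In the other direction, 1 of 16 had every Fe-deficient library below every control, as had 10.3% of all loci.

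bHLH100, one of the group Ib factors that act with FIT, had 1.08, 0.908 and 213 CPM in the Fe-deficient libraries, against 1.36 to 1.56 CPM in the 3 controls. It was high in the library in which FRO3 was high, while FRO2 in that library was at 3.41 CPM, near control 3.

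Copper genes gave a mixed picture around FRO4 and FRO5. Of 15 genes 13 were tested and 0 were called. At an unadjusted p under 0.05 COPT1 was higher and FSD1 lower, where 7.34% and 6.09% of all loci were. The regulator SPL7 had 89.0 ± 11.6 CPM in Fe-deficient and 82.3 ± 3.74 CPM in control anthers (SD, n = 3). The copper importer COPT2 had 3.84, 4.60 and 0.437 CPM, against 2.36, 9.36 and 15.7 CPM, and the importer COPT1 had 114, 103 and 68.1 CPM, against 26.4, 62.8 and 63.1 CPM. FSD1, the iron superoxide dismutase, had 19.5, 10.8 and 0 CPM, against 47.0, 148 and 412 CPM. COPT2 and FSD1 were lowest in Fe-deficient 3, where FRO4 was highest at 15 counts. They were highest in control 3, where FRO4, at 5 counts, was also highest among the controls. CSD1 (log2 fold change 0.94, SE 0.45) and CCS (0.71, SE 0.36), a copper superoxide dismutase and its chaperone, were the next in the list, with edgeR adjusted p-values of 0.391 and 0.407.

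Genes of iron import and use in organelles, where FRO3, FRO7 and FRO8 are placed, were all 13 tested, with 0 called and a median log2 fold change of -0.27. At an unadjusted p under 0.05, 1 was higher and 1 lower, where 7.34% and 6.09% of all loci were. The mitochondrial scaffold gene ISU1 had 155 ± 20.3 CPM in Fe-deficient and 105 ± 16.2 CPM in control anthers (SD, n = 3). It was the 1 of 13 with every Fe-deficient value above the highest control, as were 10.0% of all loci. MFL1, a chloroplast carrier, had 21.3 ± 2.20 and 27.5 ± 3.04 CPM (SD, n = 3), and YSL4 had 8.75, 8.62 and 9.62 CPM, against 13.3, 12.3 and 10.2 CPM. The ferritin FER3 had 46.0, 66.6 and 16.4 CPM, against 119, 77.3 and 79.8 CPM. MFL1, YSL4, FER3, FER4 and NAP14 were the 5 of 13 with every Fe-deficient value under the lowest control, as were 10.3% of all loci.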

How the data were processed

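RNA from 6 anther libraries (3 Fe-deficient, 3 control) was made into single-end TruSeq v2 libraries, per the labels. Per the submitters' processing notes, Trimmomatic 0.35, Salmon 0.12.0 and TAIR10 were used. The deposited tables hold, per the file headers, the authors' estimated counts per transcript (75.3% of them whole) and TPM, which Salmon scales for effective transcript length. The deposited effective lengths served for 1 alternative. Whether counting used strand is not given, so reads of antisense partners were not separable.

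Estimated counts were summed per locus and rounded. Groups were compared in R 4.3.3 by the quasi-likelihood test of edgeR 4.0.16 after filterByExpr, with TMM factors of 0.884 to 1.06 and group as the single term. A p was adjusted by Benjamini-Hochberg over all tested loci at 0.05. CPM used TMM-scaled totals, and log2 CPM a count of 0.5 added. The procedure was tested on simulated data, where it called 6% of 2-fold and 76% of 4-fold changes of loci. For transcripts these were 0% and 56%. A 2-fold change would thus mostly go uncalled. The changed loci were drawn at random above a cutoff on mean CPM. Among Fe-deficient libraries, FRO2, FRO3, FRO6 and FRO8 each varied more in log2 CPM than at least 95.9% of tested loci. The simulated shares need not hold for them. Alternatives used limma 3.58.1, DESeq2 1.42.0, other scalings and filters, a replicate block and each library left out.

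Coordinates are 1-based on TAIR10.1, and sequences and gene models are from RefSeq, in which 32341 of 33027 loci were found. Coding sequences were aligned with Biopython 1.88. Figures were made in Python 3.11.15 with matplotlib 3.10.9.

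The members and lists were chosen with earlier results of these data known. Named were all 8 FRO genes, the 4 members with the lowest p of each list, 7 fixed iron and copper genes, and, for each tested FRO gene whose log2 CPM spanned at least 2, the 3 nearest loci with a mean of at least 2 CPM. AP1, FER4, NAP14, IRT2, bHLH38, bHLH39 and bHLH101 were singled out after their values were seen, and other genes are named as markers.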

Additional observations from a re-analysis of the deposited data

How the results depend on the processing

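Over all loci, edgeR called 0 genes with all 6 libraries and with any single library left out (range 0 to 0). limma on log2(TPM + 1) called 3 genes, on log2(TPM + 0.1) 8, and on log2(TPM + 1) without a filter 2, and DESeq2 called 730 (436 higher, 294 lower). Libraries 1 and 2 of each group alone, an alternative chosen after seeing the data, gave 92 (89 higher, 3 lower). None of these alternatives called an FRO gene, and those run on transcripts called no FRO transcript. The lowest adjusted p of an FRO gene in any alternative was 0.101 (FRO3, libraries 1 and 2 alone). The log2 fold change kept its sign in 100 of 108 fits. The exceptions were FRO6 with a library left out (-0.86 to 2.02) and FRO8, which was -1.15 to 1.22 with a library left out, -0.11 in limma on log2(TPM + 1) with and without a filter, -0.19 on log2(TPM + 0.1) and -0.058 with libraries 1 and 2 alone. The cause was not tested. Scaling by library totals moved the median of all loci to -0.15, and limma on log2(TPM + 1) and log2(TPM + 0.1) to -0.20 and -0.23 (-0.13 without a filter).

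The labels give both groups the numbers 1, 2 and 3. Deviations of same-numbered libraries from their group means correlated at -0.18, 0.40 and -0.13 over tested loci, and not every library correlated best with its own number, so the numbers were not taken as pairs. A fit with the replicate number as a block called 0 genes and 0 FRO genes. It gave log2 fold changes of 1.40 (SE 0.69) for FRO3 and 0.55 (SE 0.22) for FRO6. For FRO7 and FRO8 it gave 0.60 (SE 0.16) and 0.02 (SE 0.20). Without the block the SEs of FRO3, FRO6, FRO7 and FRO8 were larger, at 0.89, 1.03, 0.51 and 0.89. Counts limit FRO2, FRO4 and FRO5, where 1 or more libraries had under 10 counts.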

Other observations

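The respiratory burst NADPH oxidases carry electrons over a membrane with the same kind of heme and FAD core as FRO proteins, but pass them to oxygen. Of 10 loci 7 were tested, edgeR called 0, and the median log2 fold change was -0.26. AT1G19230, placed in this list here, had 22.0, 12.7 and 16.5 CPM in the 3 Fe-deficient libraries, against 59.2, 35.9 and 57.0 CPM in the 3 controls. With a log2 fold change of -1.57 (SE 0.28) it was not called (edgeR adjusted p = 0.329), though its groups did not overlap. It was the 1 of 7 with every Fe-deficient library below every control, as were 10.3% of all loci. RBOHH and RBOHJ, which act in pollen tubes, had 31.4, 18.4 and 2.93 CPM and 51.7, 32.3 and 10.9 CPM in the 3 Fe-deficient libraries, against 0, 0 and 8.52 CPM and 0.151, 10.7 and 11.0 CPM in the 3 controls. Both were highest in Fe-deficient 1 and 2, as were the summed late pollen markers, and their part was not tested. RBOHF had 80.8 ± 18.9 CPM in Fe-deficient and 61.6 ± 5.71 CPM in control anthers (SD, n = 3).

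Cytochrome b561 proteins are another family of membrane reductases, which use ascorbate. All 4 loci were tested and 0 were called by edgeR, with 0 at an unadjusted p under 0.05. AT5G38630 had 26.4 ± 2.32 CPM in Fe-deficient and 26.0 ± 2.34 CPM in control anthers, and AT4G25570 had 35.2 ± 1.97 and 30.4 ± 5.54 CPM (SD, n = 3). AT1G14730 had 1.55 ± 0.721 and 1.02 ± 0.598 CPM (SD, n = 3). AT1G26100 had 2.22, 2.38 and 3.72 CPM in the 3 Fe-deficient libraries, against 4.17, 4.57 and 4.68 CPM in the 3 controls, with no overlap. It was the 1 of 4 with every Fe-deficient library below every control, as were 10.3% of all loci. The summed level of the 4 was 64.8 to 66.6 CPM in Fe-deficient and 57.7 to 65.8 CPM in control anthers, while that of the FRO family was 112 to 586 and 82.6 to 190 CPM.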
